A study of Caenorhabditis elegans with 4 samples.

Results

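The chromosome V centre is the inner part of the longest chromosome of the nematode Caenorhabditis elegans, where crossovers are rare. Its MEP-1 peaks were taken from the combined peak list of the series as those on V whose midpoint lies from 5900000 to 16550000 (genome build WormBase WS180). This gave 1225 of the 2109 peaks on V and of the 11448 peaks in all. The span of 10.65 Mb is 50.9% of V up to its last peak and holds 58.1% of the peaks of V. The peaks behind the list come from embryos of strain OP70, grown at 20 °C. The animals were hermaphrodites that carried the allele unc119(ed3) and the transgene wgIs70, which is written as mep-1::TY1 EGFP FLAG C and also holds unc119, so every library shares this background. The transgene was made by bombardment, and MEP-1 was followed through its GFP tag with a purified goat antibody. The values describe the tagged protein in whole embryos, with all their cell types mixed. Chromatin immunoprecipitation (ChIP) DNA was sequenced in 2 libraries, with input DNA in 2 libraries of the same strain as the control.

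MEP-1, which has zinc fingers, works with LET-418, a chromatin remodeller of the Mi-2 type, and with the deacetylase HDA-1, and it is known for keeping germline genes off in somatic cells of the worm. On worm autosomes the centres are rich in conserved, broadly expressed genes, while the arms recombine more and hold more repeats and young gene families. Chromosome V is known for its many chemoreceptor and nuclear receptor genes. Neither gene names nor sequences are given for the peaks, since no genome or annotation of build WS180 was used here.

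The list holds 1 q-value per peak and no value per library. A q-value is a p-value for ChIP against scaled control reads, corrected for the many regions the caller tested. No replicate error can be given, the depth of each library is unknown, and no difference below was tested. Intervals are 95% exact Poisson intervals for counts and Clopper-Pearson intervals for shares, and they cover counting error only. SDs are spreads between stretches of the genome, not between samples.

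Peaks were denser in the centre than in the arms of V. The centre held 115 peaks per Mb (interval 109 to 122), against 86.1 per Mb in the arms (80.5 to 92.0), a ratio of 1.34 (interval 1.22 to 1.46). The left arm, at 84.4 per Mb, and the right arm, at 88.4 per Mb, both lay below the centre. Full bins of 1 Mb held 118 ± 29.99 peaks in the centre (SD, 10 bins) and 81.6 ± 27.7 in the arms (SD, 8 bins). These bins overlapped, with 65 to 169 peaks in the centre and 29 to 112 in the arms. Single stretches of the centre were therefore as sparse as the arms, although the average was higher.

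The difference was larger when strong peaks or bases were counted. Peaks covered 344 kb, or 3.23% of the centre, against 213 kb, or 2.08% of the arms. In the better 50% of all listed peaks by q, the centre held 51.3 per Mb and the arms 32.5 per Mb. This better part made up 44.6% of the peaks in the centre (interval 41.8% to 47.4%), 37.8% in the arms (34.6% to 41.1%) and, by definition, 50% of the whole list. Read numbers per peak are not listed. They were back-calculated from the q-value, its rank and the number of regions tested, under an assumption on the caller's p-value given with the processing. The ChIP reads in peaks came to 7443 per Mb in the centre and 4673 per Mb in the arms. Control reads moved with these values. In peaks of at least 200 bp they had a median of 51.7 per kb in the centre and 46.7 per kb in the arms, and their part in the difference was not tested.

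The same contrast on the other chromosomes, between the middle 0.5 and the outer parts, had ratios of 1.17 on I, 1.28 on II, 1.29 on III, 1.096 on IV and 1.09 on X. On V it was 1.34 with the limits used here and 1.46 with its own middle 0.5. In density itself, the V centre was near the middle 0.5 of X (116.3 per Mb) and below those of I (128), II (157) and III (168). Only IV (82.1) was lower among these middle parts. In the better 50% by q, the V centre with 51.3 per Mb was likewise near X (52.0), above IV (42.3) and below I (71.5), II (85.5) and III (98.4). The scaled control differs between chromosomes, with medians per kb of 51.7 in the V centre, 44.8 on III, 46.9 on II, 64.6 on I, 65.8 on X and 72.4 on IV in peaks of at least 200 bp. The order of the chromosomes cannot be told apart from that. In the outer parts the control medians per kb were lower, at 39.4 on III, 40.0 on II, 54.8 on I, 61.5 on X and 64.1 on IV.

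Within the centre, density was uneven along the chromosome. The bin from 11000001 to 12000000 held 169 peaks (interval 144 to 196), which covered 45.3 kb and had a median gap of 1766 bp. The next 3 bins to the right held 131, 145 and 131 peaks. The bin from 7000001 to 8000000 held 82 peaks (65.2 to 102), fewer than its neighbours with 127 and 105. At the right end, the bin from 15000001 to 16000000 held 65 peaks (50.2 to 82.8), and the last 0.55 Mb of the centre held 34. The median width was 260 bp from 15000001 to 16000000 and 189 bp in the last 0.55 Mb, against 229 bp in the fullest bin. Their median ratio of ChIP to control was 3.86 in this sparse bin and 3.25 in the fullest, and the control in peaks of at least 200 bp was 42.3 and 54.5 per kb. Few peaks and few control reads per kb thus came together at the right end, and the part of the control was not tested.

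**Figure D1:**
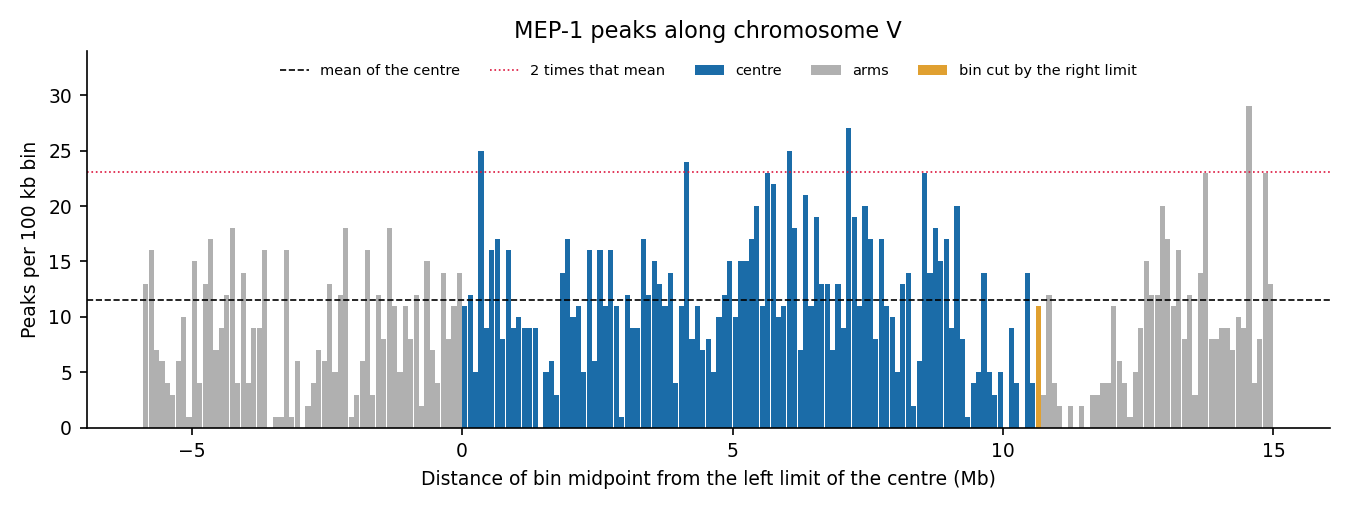
Peaks per 100 kb bin along chromosome V, plotted by the distance of the bin from the left limit of the centre in Mb. Blue bars are the 106 full bins of the centre, grey bars the arms, the orange bar the bin cut by the right limit, and the lines mark 1 and 2 times the mean of the centre (11.5 peaks); 4 blue bars pass the upper line and 3 blue bins are empty.

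Counts next to the limits of the centre are small, and whether density steps at them was not tested. The 500 kb just inside the left limit held 62 peaks and the 500 kb just outside it 51. At the right limit the counts were 25 inside and 29 outside. The nearest peak inside the left limit ran from 5917761 to 5918052 with 75 ChIP reads, and the nearest outside from 5870641 to 5870734 with 26 ChIP reads. At the right limit the nearest inside was a peak of 4 bp from 16540057 to 16540060 with 18 ChIP reads, and the nearest outside had 24 bp from 16552596 to 16552619 and 19 ChIP reads.

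Bins of 100 kb in the centre held 11.5 ± 5.99 peaks (SD, 106 bins), with a median of 11 and quartiles of 8 and 15.75. The variance was 3.11 times the mean in the centre and 4.16 times in the arms. Neighbouring bins were only weakly alike (Pearson's r = 0.15 over 105 pairs, which share bins and list). A bin was taken as dense at 2 or more times the mean of the centre, which is 23.1 peaks. There were 4 such bins, and they held 101 peaks, or 8.24% of the centre.

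The fullest bin, from 13000001 to 13100000, held 27 peaks (interval 17.8 to 39.3). They covered 8629 bp, with a median gap of 1146 bp, and 10 of the 27 belonged to the better 50% by q. Its strongest peak ran from 13085730 to 13086736, with 232 ChIP reads against 32 scaled control reads. With the same bin edges, the fullest bin of the arms held 29 peaks.

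The bin from 6200001 to 6300000 held 25 peaks and had more covered sequence than the other 3 dense bins, 10690 bp. It contained the strongest and widest peak of the centre, from 6226461 to 6229266, and none of its peaks was under 50 bp. A narrower peak of the same bin, from 6267414 to 6267845 with other peaks in between, had 221 ChIP reads against 18 control reads, a ratio of 12.3. The bin from 11900001 to 12000000 also held 25 peaks, of which 14 were in the better 50% by q. Its strongest pair lay close together, from 11979843 to 11980351 with 181 ChIP reads and from 11982085 to 11982670 with 174.

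The bin from 10000001 to 10100000 had 24 peaks. Their median gap was 847 bp, and none was wider than 502 bp. Just under the limit were the bins from 11500001 to 11600000 and from 14400001 to 14500000, with 23 peaks each, and from 11600001 to 11700000, with 22. In the first of these the strongest peak, at 11504805 to 11505375, reached a ratio of 7.05 on 148 ChIP reads. The next bins started at 12200001 (21 peaks) and at 11300001, 13300001 and 15000001 (20 each). Of these 11 bins, 7 lay between 11 and 14 Mb, in a centre that spans 10.65 Mb.

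Bins with at least 1.5 times the mean numbered 15 of 106, and they held 324 peaks, or 26.4% of the centre. Joined where they touched, they formed 12 stretches, of which 9 were single bins. The 3 stretches of 200 kb ran from 11500001 to 11700000 with 45 peaks, from 11900001 to 12100000 with 43 and from 13000001 to 13200000 with 46. None of these runs was longer than 200 kb. Bin edges cut some of them: a window of 100 kb that starts at the peak at 11945174 held 32 peaks, against at most 31 in such windows of the right arm and 27 of the left arm.

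Width had no clear course with peak number. In the 4 dense bins the median width was 260 bp and 6.93% of the peaks were under 50 bp. In the 82 bins between these and the sparse ones the values were 228 bp and 13.8%. The 20 bins with at most 0.5 times the mean held 66 peaks. Their median width was 231.5 bp, and 5 of them were under 50 bp. Control reads per kb in peaks of at least 200 bp moved along, with medians of 56.0 in dense, 51.8 in intermediate and 43.1 in sparse bins. The median ratio of ChIP to control ran the other way, at 3.25, 3.36 and 3.87 in that order. Single bins differed from their class, with median widths of 200 bp in the fullest bin and 152 bp in the 23-peak bin at 11500001. Over the 94 bins with at least 5 peaks, Spearman's rho of peak number was -0.16 with median width and -0.35 with median ratio, a description of bins that share 1 list and 1 control.

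At the other end, 3 bins of the centre held no peak, those from 7300001 to 7400000, from 15900001 to 16000000 and from 16200001 to 16300000. A count of 0 has an upper limit of 3.69 peaks, against the mean of 11.5. The bins starting at 8800001 and 15200001 held 1 peak each, and the one at 14200001 held 2. Bins starting at 7600001 and 15700001 held 3 each, and those at 9800001, 15300001, 16100001 and 16400001 held 4 each. Of these 12 emptiest bins, 7 lay to the right of 15 Mb, where the full bins of the centre run from 15000001 to 16500000. All 106 full bins run from 5900001 to 16500000. The single peak of the bin from 8800001 to 8900000 had 78 ChIP reads against 24 control reads. How well reads map in these bins was not examined.

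The 5 longest peak-free stretches measured 139.5 kb from 16160419 to 16299940, 137 kb from 7298055 to 7435085, 133 kb from 8802648 to 8936113, 127 kb from 15214194 to 15341493 and 105 kb from 8669101 to 8773845. The first 4 overlap empty bins or bins with 1 peak. The third and the fifth lie side by side, with a short run of peaks between them. Gaps over 20 kb numbered 146 in the centre, or 11.9% of its gaps, against 144, or 16.3%, in the arms. The 146 gaps took up 52.9% of the centre's length.

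Peaks lay close together between those gaps. The median gap from the end of a peak to the start of the next was 3043 bp in the centre (quartiles 948.5 and 9848 bp), against 3896 bp in the arms (1249 and 12749 bp). The mean gap was much longer than the median, 8397 bp in the centre and 11353 bp in the arms. Another midpoint lay within 2000 bp for 56.3% of the centre's peaks (interval 53.5% to 59.1%) and 48.4% of the arms' (45.1% to 51.8%). Within 1000 bp the shares were 30.7% in the centre and 27.0% in the arms, and within 5000 bp 81.5% and 75.7%. At the shortest midpoint distance, 500 bp, the order turned, with 49 of 1225 peaks in the centre and 49 of 884 in the arms. Midpoint distances include peak width, and counted as gaps the order did not turn. Gaps of 200 to under 300 bp were 3.84% in the centre and 3.74% in the arms. From 300 to under 500 bp the shares were 8.17% and 6.24%. Denser peaks alone bring neighbours closer, so these comparisons are not independent of the density. Among the middle parts of the other chromosomes the share within 2000 bp was 59.2% on II, 56.8% on III, 50.7% on X, 50.5% on I and 42.8% on IV.

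**Figure D2:**
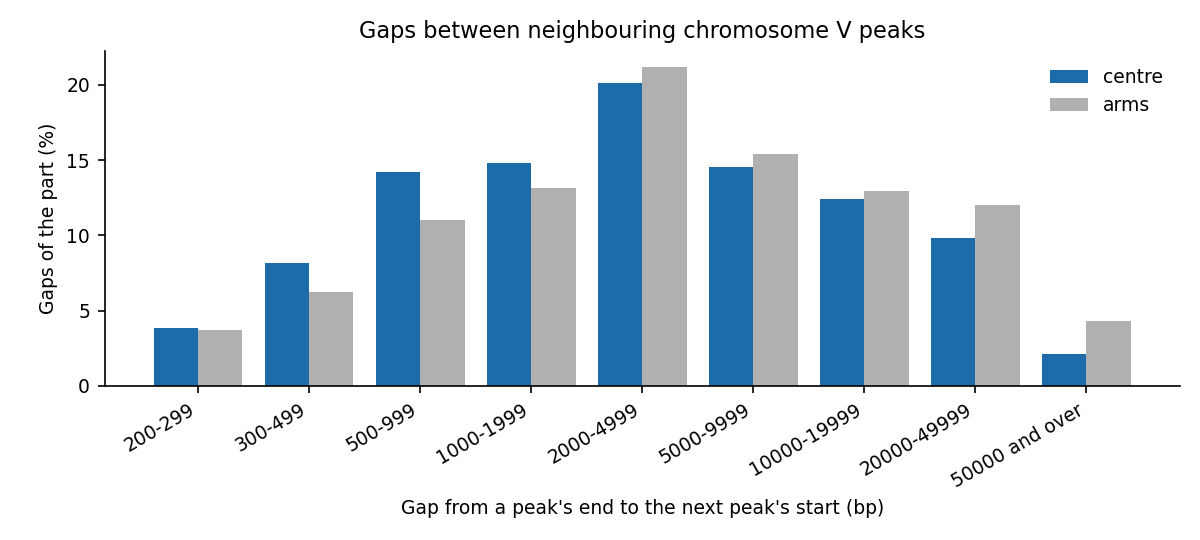
Gaps between neighbouring peaks of chromosome V by length class in bp, as a percentage of the 1224 gaps of the centre (blue) and the 882 gaps of the arms (grey). Each class under 2000 bp holds a larger share in the centre, and each class from 2000 bp on a larger share in the arms.

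Joining peaks whose neighbouring midpoints are at most 2000 bp apart gave 768 chains in the centre, of which 535 were single peaks. Single peaks were 43.7% of the centre's peaks and 51.6% of the arms'. Chains of 5 or more numbered 24 in the centre and 18 in the arms. They held 174 peaks, or 14.2%, in the centre and 114, or 12.9%, in the arms. The longest chain had 13 peaks in the centre and 11 in the arms.

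A pair of chains with 13 peaks was the longest in the centre. The first ran from 11528713 to 11541635 and lay in a bin with 23 peaks. Its 13 peaks were 12 to 877 bp wide, with gaps of 200 to 1630 bp, and together held 606 ChIP reads. The widest of them, from 11531854 to 11532730, had 126 ChIP reads against 42 control reads, and the peak next to it, from 11532931 to 11533316, had 60 against 24. The other ran from 13016827 to 13028334, inside the fullest bin. Its peaks were 2 to 670 bp wide and together held 738 ChIP reads. The strongest, from 13021436 to 13022105, had 124 ChIP reads against 31 control reads.

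The 3rd chain, from 11335136 to 11345221, held 12 peaks with 777 ChIP reads over 10086 bp, and it covered 4344 bp. The peak from 11336776 to 11337583 had the most reads, 130 against 44 control reads. The lowest q in this chain, 4.20e-11, belonged to a peak of 381 bp from 11338826 to 11339206 with 87 ChIP reads against 19 control reads. A 4th chain, from 14495532 to 14508723, also held 12 peaks. None of the first 3 chains held a peak with a ratio above 5.8, where the upper quartile of the whole centre was 4.45. None of their peaks was among the 10 strongest of the centre. These chains held only 13, 13 and 12 of the centre's 1225 peaks, so this absence says little.

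**Figure D3:**
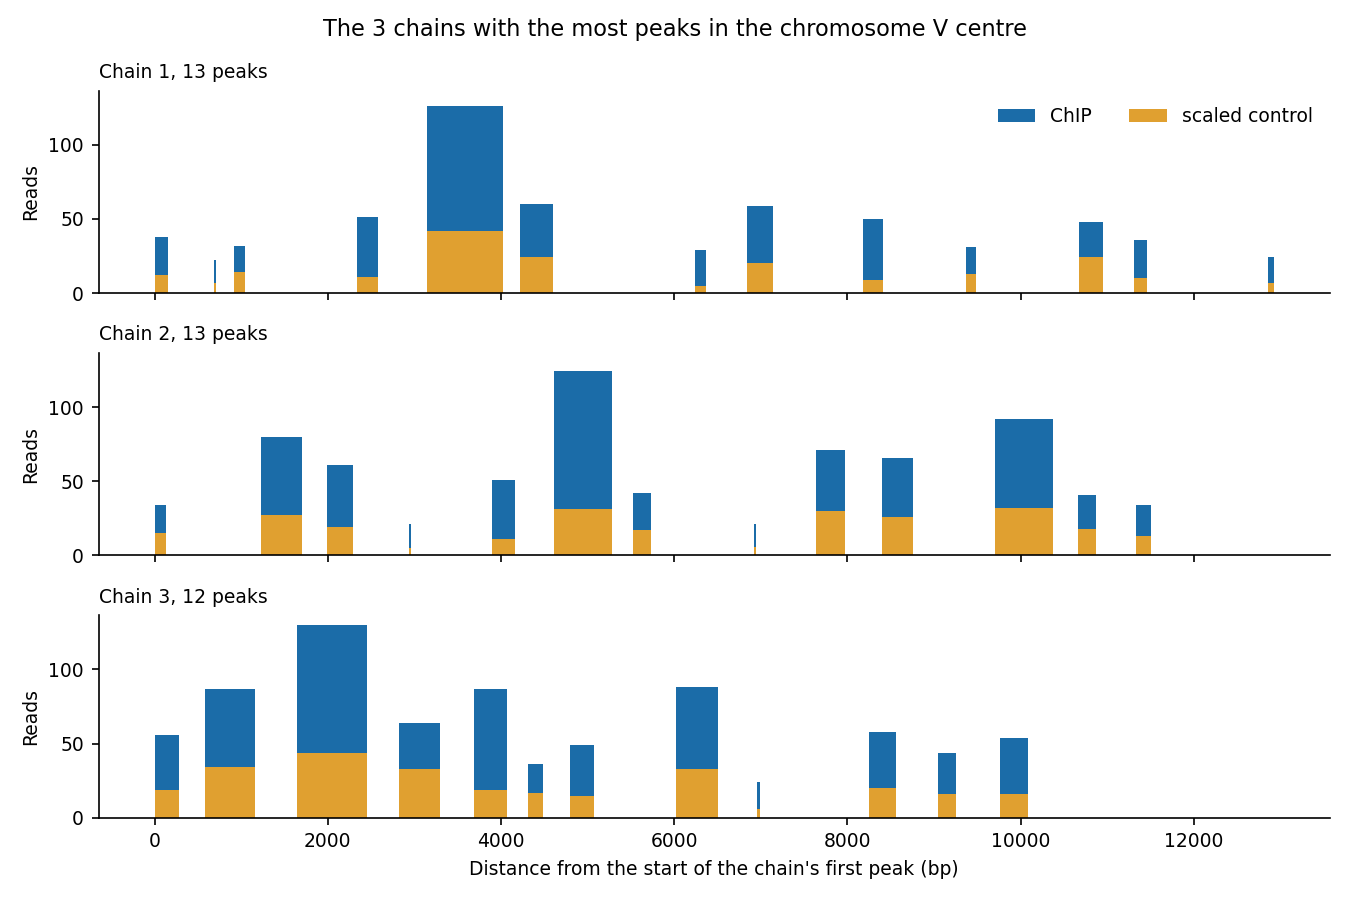
ChIP reads (blue) and scaled control reads (orange, drawn in front, both from 0) in each peak of the 3 longest chains of the centre, by distance in bp from the start of the chain's first peak. Bars have the width of the peak, or 25 bp where it is narrower; no peak in them passes 130 ChIP reads.

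Peaks in long chains were wider than single ones but had a lower median ratio of ChIP to control. For the 174 peaks in chains of 5 or more, the median width was 283 bp and the ratio of ChIP to control 3.17. The 516 in chains of 2 to 4 had 229.5 bp and 3.31, and the 535 single peaks had 211 bp and 3.50. Median ChIP reads were 52, 47 and 44 in that order. In the better 50% by q were 48.9%, 42.6% and 45.0%, so by these values the peaks of long chains were not weaker. Of the 10 strongest peaks by q, 4 were single, 4 stood in chains of 2 to 4 and 2 in longer chains. Of the 19 peaks over 1000 bp, 2 stood in chains of 5 or more, which held 14.2% of all peaks of the centre.

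Widths in the centre had a median of 229 bp (quartiles 123 and 381 bp), against 188 bp in the arms (85 and 324 bp) and 237 bp in the whole list. By arm the median was 200 bp on the left and 174.5 bp on the right. Peaks under 50 bp were 13.0% of the centre (interval 11.1% to 14.99%) and 16.2% of the arms (13.8% to 18.8%). Peaks of at least 200 bp were 57.1% of the centre and 46.3% of the arms. The shift came from widths between 200 and 750 bp, since peaks of 1000 bp or more were as rare in both, with 19 of 1225 in the centre and 16 of 884 in the arms. The middle parts of II and III had medians of 213 and 217 bp, and those of X, I and IV had 274.5, 282 and 300 bp. Their outer parts had lower medians, 185 bp on II, 191.5 bp on III, 262 bp on X, 234.5 bp on I and 279 bp on IV.

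**Figure D4:**
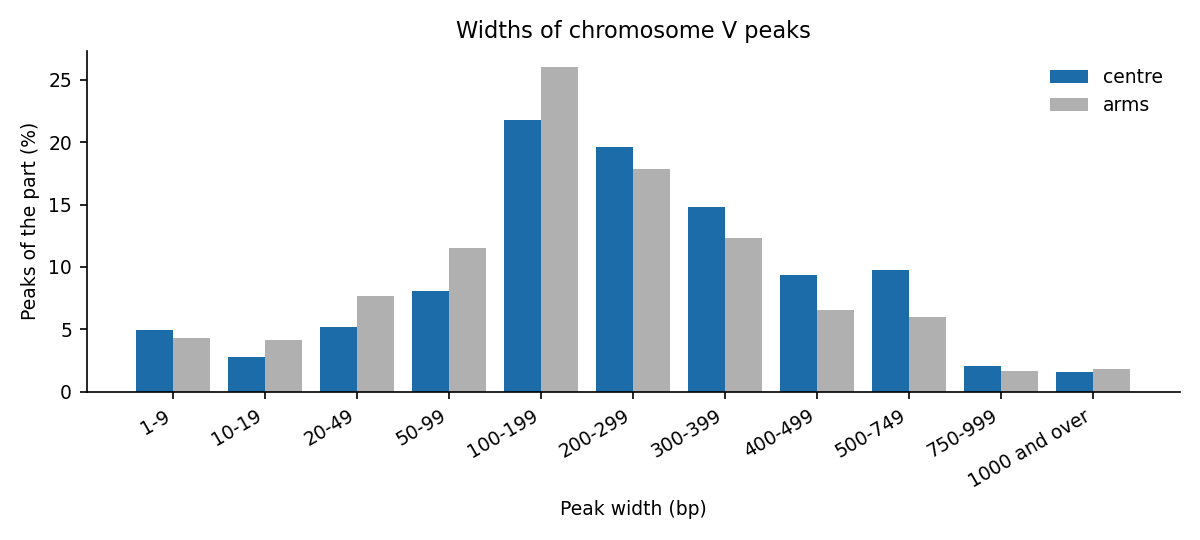
Width classes of chromosome V peaks in bp, as a percentage of the 1225 peaks of the centre (blue) and the 884 of the arms (grey). The centre has the larger share in each class from 200 bp up to 1000 bp, and the arms in each class from 10 bp up to 200 bp.

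Narrow peaks of the centre sat at the lower end of the reads. The 159 peaks under 50 bp had 18 to 27 ChIP reads, with a median of 22 against 6 control reads. They covered 0.829% of the bases under peaks, and 1 of them was in the better 50% by q. Peaks of 300 bp to under 400 bp had medians of 70 ChIP and 18 control reads, a ratio of 4.15, against 71 and 16 reads and a ratio of 4.44 in the arms. At this width the centre and the arms thus had nearly the same ChIP reads. Broad peaks, over 1000 bp, made up 1.55% of the centre's peaks and 7.79% of its covered bases. They held 148 to 641 ChIP reads at ratios of 3.08 to 7.25.

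The ratio of ChIP to control was lower in the centre than in the arms, with more reads of both kinds. Over the 1224 peaks with recovered reads, a median of 47 ChIP reads stood against 14 control reads in the centre, and 37 against 10 in the arms. The median ratio was 3.38 in the centre (quartiles 2.78 and 4.45), 3.75 in the arms (3.00 and 5.01) and 3.63 in the whole list. Between the 10 full bins of 1 Mb it ran from 3.22 to 3.86. The highest q listed in the centre is 0.00990, and at such a limit peaks with few reads need a higher ratio to be listed. No peak of the centre or the arms had fewer than 18 ChIP reads, although one with 18 had a q of 0.000417. Whether a floor on reads also applied, and whether it differed along V, was not examined. Peaks with 20 to 29 ChIP reads, whose lowest listed ratio was 2.42, made up 22.0% of the centre and 33.6% of the arms. Their median ratio was 3.29 in the centre and 3.67 in the arms. From 30 to under 50 ChIP reads it was 2.82 and 3.26, and from 50 to under 100 it was 3.55 and 4.25. Under 20 ChIP reads, with 4 peaks in the centre and 7 in the arms, it was 4.75 in both. The part of read number in the difference was not tested. Where a peak had 100 or more ChIP reads, the median ratio was 5.58 over 222 peaks of the centre and 6.67 over 99 of the arms. These deep peaks were 18.1% of the centre's peaks and 11.2% of the arms'.

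**Figure D5:**
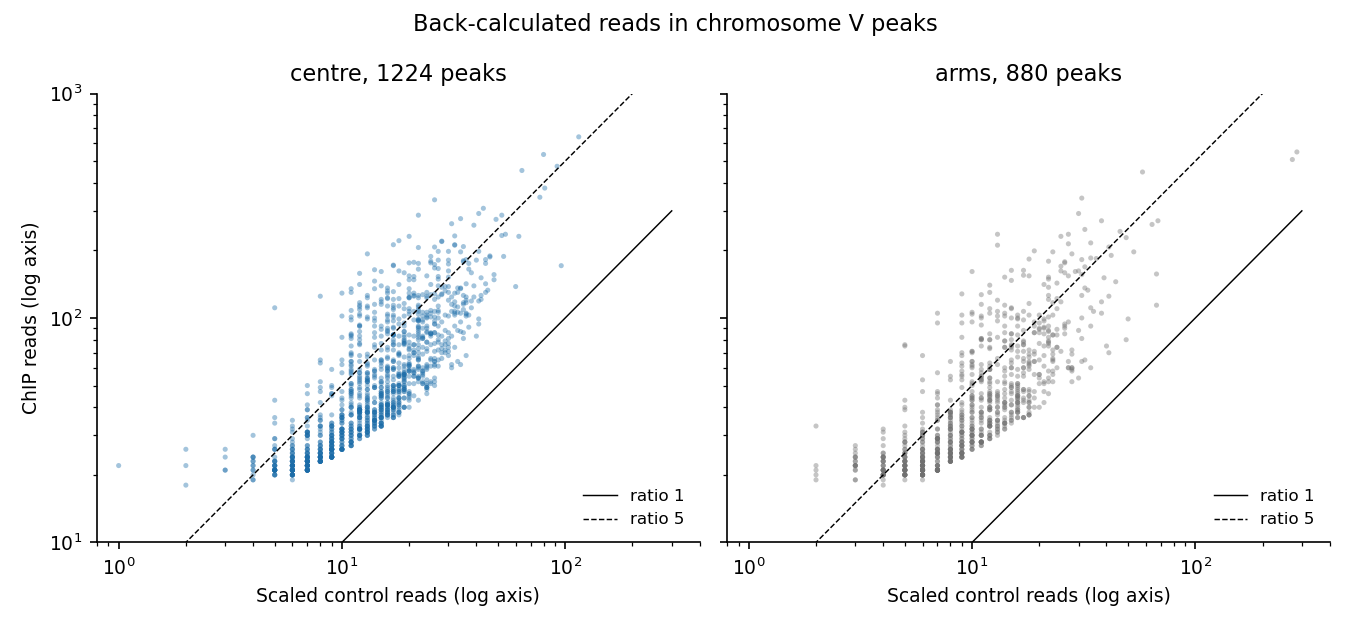
Back-calculated ChIP reads against scaled control reads of each peak, both on log axes, for 1224 peaks of the centre (left) and 880 of the arms (right), with lines at ratios of 1 and 5. Points of the centre reach 641 ChIP reads and 115 control reads, and no point of either part lies under 18 ChIP reads. A peak with 18 ChIP reads against 2 control reads had a q of 0.000417. At few control reads the lower edge is thus not the limit on q.

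The strongest peak of the centre, from 6226461 to 6229266, was 2806 bp wide. It had 641 ChIP reads (interval 592 to 693) against 115 control reads, a ratio of 5.57, and its q of 1.15e-86 ranked 17th in the whole list. The next, from 9343091 to 9344757, had 535 ChIP reads (491 to 582) against 80 and a ratio of 6.69. A peak from 9730778 to 9732285 had 454 against 64. These 3 were all at least 1508 bp wide, at 228 to 321 ChIP reads per kb.

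Compact peaks among the 10 strongest had higher ratios. These 10 were chosen by q, and a peak with fewer reads needs a higher ratio to reach the same q. The peak from 14685556 to 14686199, 644 bp wide, had 336 ChIP reads against 26 control reads, a ratio of 12.9. A peak of 544 bp from 10897074 to 10897617 had 287 against 22, a ratio of 13.0. Both reached over 520 ChIP reads per kb. By contrast, the broad peak from 10715286 to 10717624 had 474 against 92, or 203 ChIP reads per kb. The remaining peaks of this group were 10466477 to 10467373 (ratio 7.16), 15002046 to 15002946 (ratio 8.15), 9546258 to 9547234 (ratio 7.12) and 13788571 to 13790254 (ratio 4.68). Of the 10, 5 lay between 9343091 and 10717624, limits set by those peaks themselves. The peak from 10897074 to 10897617 lay in the same 1 Mb bin as the last of them. The 1 Mb bins starting at 9000001 and 10000001, which hold these peaks, had 115 and 110 peaks, against a mean of 118.

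The highest ratios with at least 100 ChIP reads belonged to peaks of 365 to 544 bp. The peak from 14055000 to 14055408 had 111 ChIP reads (interval 91.3 to 134) against 5 control reads, a ratio of 22.2 that rests on those 5 reads. The peak from 8534869 to 8535233 had 125 against 8, a ratio of 15.6. A peak from 10807900 to 10808290 had 193 against 13, a ratio of 14.8, and lay between 2 of the 10 strongest peaks. The peak from 15511569 to 15512008, in the sparse right end, had 158 against 12, a ratio of 13.2. The widest peaks beyond those already given included 14830533 to 14832846, which had 345 ChIP reads over 2314 bp, or 149 per kb.

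In the list of strong peaks, the centre was less well represented than in the list as a whole. It held 10.7% of all peaks and 10.6% of the length of the 6 chromosomes, but 9.54% of the better 50% by q. Of the 100 peaks with the lowest q in the series, 6 lay in the centre and 4 in the arms of V. Of the best 1000, 93 lay in the centre and 56 in the arms. Rank depends on the scaled control, which differs between chromosomes, so these counts are given without a test.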

How the data were processed

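ChIP and input DNA of OP70 embryos were sequenced, 2 libraries each, and per the labels' protocols embryos were crosslinked with 2% formaldehyde and sonicated. The authors deposited 1 combined list of regions; per the file headers it was made with PeakSeq on WormBase WS180, and each deposited value is a q-value. The aligner, caller version and way of combining the replicates were not given in the sources used here. The labels name a separate extraction for each replicate.

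Members and settings were chosen with earlier results of these data known. Both ends of a peak count, chromosomes were cut at the end of the last peak, and bins lie on multiples of 100 kb or 1 Mb. Densities, widths, gaps and chains were computed with Python 3.11.15, numpy 2.4.6, pandas 2.3.3 and scipy 1.17.1. Reads were back-calculated over the whole list: with 15494 tested regions, q times rank over regions equalled a one-sided binomial tail at 0.5 of 1 pair of whole reads for 11440 of 11448 peaks (tolerance 1e-10, natural log). The tail was taken to include the ChIP count, which could not be checked against the caller's own output. Leaving that count out takes 1 read from ChIP and adds 1 to the control of each peak. The median ratio of the centre was then 3 in place of 3.38, and ratios on few control reads change most. Control reads are after the caller's scaling. On simulated data made with the same tail, the script returned the counts put in, which does not check the choice of tail. Peaks were named by position under a written rule: lowest q, highest ratio, widest, fullest and emptiest bins (bins tied with the last were added after their values were seen), longest gaps and chains. The peaks beside the longest chains' summaries and the narrower peak in the bin at 6200001 were chosen after their values were seen. No test was run.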

Additional observations from a re-analysis of the deposited data

How the results depend on the processing

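Of 34 recomputed values, 20 stayed within 1.5 times the reported value, or within its interval for shares and the density ratio. The other 14 moved beyond. A reversal was defined only for the density ratio, as a higher density in the arms, and did not occur. Leaving out empty bins and a minimum of 20 bp were chosen after seeing the data. The centre stayed denser than the arms in every setting run, at ratios from 1.32 to 1.65. The ratio of 1.34 became 1.58 in the better 50% by q, 1.65 with peaks of at least 200 bp, 1.55 for covered base pairs and 1.46 with the middle 0.5 of V as the centre. Density became 51.3 per Mb in the better 50% and 65.7 per Mb with peaks of at least 200 bp. In the better 50% the median width was 395 bp, the median gap 9266 bp, the share within 2000 bp 31.9% and the fullest bin 14 peaks. The share was 30.7% within 1000 bp, 81.5% within 5000 bp and 53.1% with peaks of at least 50 bp. A limit of 1.5 times the mean gave 15 dense bins in place of 4. The cause of the changes in the ratio was not tested. Bins shifted by 50 kb had 29 peaks at most, in those starting at 9950001 and 11950001, and 5 dense bins. The fullest bin was the one at 11900001 in the better 50% and the one at 6200001 with peaks of at least 50 bp, and with peaks of at least 200 bp these 2 bins were tied at 18. No paired analysis was possible because each value describes all libraries at once, and for that reason leaving out a replicate was not possible either. Library depth is unknown.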

Other observations

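A width of exactly 200 bp occurred 28 times in the centre, while the 19 other widths from 191 to 210 bp occurred 2.63 times each on average and no other width of the centre more than 10 times. In the whole list it occurred 253 times, against a mean of 27.6 for those other widths. The 28 peaks had medians of 41 ChIP and 16 control reads, a ratio of 2.56. No gap in the whole list was shorter than 200 bp, and the shortest in the centre was 200 bp.

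The lowest ratio of the centre, 1.78, belonged to a peak of 681 bp from 12509928 to 12510608 with 171 ChIP reads against 96 control reads. In the centre a control of 96 reads is far above the median of 14 over all widths, although the widest peak had 115. Peaks of the centre from 500 to under 750 bp had a median of 27 control reads. The arms held a pair of peaks with far more control reads than any in the centre: 285 with 549 ChIP reads from 5284023 to 5285751, and 272 with 508 ChIP reads from 264935 to 265982. Among peaks of the centre with fewer than 100 ChIP reads, the highest ratio, 22.0, stood in a peak of 14 bp from 13333060 to 13333073 with 22 ChIP reads against 1 control read. The ratio of 22.0 rests on 1 control read. These peaks were chosen after their values were seen.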
